A study of Homo sapiens with 46 samples.

Results

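The nuclear pore complex genes described here are 31 nucleoporin genes, taken by name from a list of nucleoporins. All 31 of 31 were found among the 62756 genes of the count table, and 31 were among the 21484 genes with enough counts to be tested. They were followed by total RNA sequencing in DLD-1 cells, an established line from a human colorectal adenocarcinoma. In 3 derived lines an endogenous lamin, A/C, B1 or B2, was tagged N-terminally with the auxin-inducible degron (AID), a tag that lets the plant hormone auxin trigger breakdown of the tagged protein. These lines are named LA/C-AID, LB1-AID and LB2-AID as in their labels, and the fourth is the untagged parental line, labelled WT, treated so that responses to auxin itself could be listed. Auxin, dissolved in DMSO, was used at 1 mM for 0, 16 or 96 h, which makes 12 groups and 46 libraries. Each group had 4 libraries, except LB1-AID at 0 h and LB2-AID at 96 h with 3 each. A library came from 1 culture well, so the p-values measure the spread between wells of a line. Each tag was present in a single line, so the tag and other differences of that line cannot be told apart.

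The nuclear pore complex is the gated channel through the nuclear envelope that carries proteins inwards and RNA outwards. Its scaffold is an inner ring that lines the curved membrane, flanked by outer rings built from Y-shaped complexes. A membrane ring anchors it, and channel nucleoporins rich in phenylalanine-glycine repeats form the barrier that transport receptors pass. Filaments on the cytoplasmic side take part in mRNA release, and a basket on the nuclear side touches the lamina, the lamin meshwork under the inner membrane. Some members also work elsewhere: SEC13 is a coat subunit of vesicles leaving the endoplasmic reticulum and, with SEH1L, belongs to a regulator of nutrient signalling.

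The sequences just upstream of 4 genes are printed because these genes had the widest range of group means in the data: SEC13, NUP210, POM121 and POM121C. They come from RefSeq promoters on GRCh38.p14, which matched 28 of 31 members and not NUP43, AHCTF1 and GLE1. Each reads 5′ to 3′ along the gene's strand and ends at the base before the annotated start, or for SEC13 at the base before its exons in the count table. For POM121 that RefSeq start lies inside the span of the gene in the count table, so the window is upstream of that start only. Capitals mark the letters CCGGAAG (a core bound by ETS factors), CCAAT (the CCAAT box) and GGGCGG (the GC box), or their reverse complements.
SEC13 (chr3:10321113-10321241, minus strand): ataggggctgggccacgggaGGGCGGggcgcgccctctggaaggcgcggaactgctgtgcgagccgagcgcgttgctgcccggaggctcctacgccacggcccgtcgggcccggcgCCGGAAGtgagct
NUP210 (chr3:13420323-13420522, minus strand): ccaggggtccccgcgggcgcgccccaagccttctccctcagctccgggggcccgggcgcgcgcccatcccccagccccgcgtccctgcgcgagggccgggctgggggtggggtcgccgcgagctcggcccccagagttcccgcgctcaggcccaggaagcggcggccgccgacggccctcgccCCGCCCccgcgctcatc
POM121 (chr7:72924895-72925094, plus strand): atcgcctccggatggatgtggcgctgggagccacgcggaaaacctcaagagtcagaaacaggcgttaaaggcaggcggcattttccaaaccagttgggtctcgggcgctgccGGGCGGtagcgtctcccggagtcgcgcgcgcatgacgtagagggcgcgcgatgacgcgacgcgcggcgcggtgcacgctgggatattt
POM121C (chr7:75486300-75486499, minus strand): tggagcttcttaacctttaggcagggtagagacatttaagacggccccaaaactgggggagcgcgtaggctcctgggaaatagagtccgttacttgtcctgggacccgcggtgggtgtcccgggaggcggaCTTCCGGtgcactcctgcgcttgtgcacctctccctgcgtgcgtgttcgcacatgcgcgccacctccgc

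Over the whole promoter windows of the 28 matched members, CCGGAAG occurred on either strand in 9, or 32.1%, against 10.3% of all 35116 promoters in the RefSeq table. The 9 genes were NUP107, NUP35, NUP37, NUP54, NUP58, NUP88, POM121C, SEC13 and SEH1L. CCAAT was found in 35.7% of member promoters and 34.6% of all, and GGGCGG in 46.4% and 45.0%. TATAAA, the TATA box, was in 0 of 28 member promoters and in 11.5% of all. POM121 and POM121C, which share part of their transcript sequence, shared 0 of the 289 words of 12 bases in the POM121 window. These matches describe letters in a window and no binding. The 35116 promoters were not matched to the members for expression, gene type or GC content.

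Library totals ran from 479446 to 37309421 counts, with a median of 11533218, and single members drew between 7 and 17511 counts per library. Of the 6 libraries under 5000000 counts, 5 were 0 h libraries, and the sixth was LB2-AID at 16 h, replicate 3. LA/C-AID at 0 h, replicate 1, with 3318819 counts, and LB2-AID at 0 h, replicate 1, with 1894447, stood apart from their groups, and where a called change or a mean described here rests on them, a value without them or the single libraries are given. Several differences also moved with base composition: over 8547 genes, Spearman's rho between a gene's log2 change and its GC content was -0.66 for LA/C-AID at 96 h against 0 h, 0.49 for LA/C-AID against parental at 0 h and -0.48 at 96 h. It was -0.48 for LB2-AID at 16 h against 0 h and 0.01 and 0.02 for the parental line at 16 and 96 h. These are descriptions across genes that share libraries, and their part in the members' changes was looked at only through the fits with the trend removed. The epithelial markers EPCAM, CDH1, KRT8, KRT18, KRT19, KRT20 and CDX2 were present in every group, while CDX1, VIL1 and LGALS4 stayed at or below 3.41 CPM (counts scaled for library size). Fibroblast, leukocyte and endothelial markers summed to at most 3.69, 3.64 and 10.2 CPM in any group, with COL1A2 and DCN at 0. The transcript of each tagged lamin was lower than in parental cells before auxin, with log2 differences of -0.77 for LMNA in LA/C-AID (edgeR adjusted p = 0.0346), -0.64 for LMNB1 in LB1-AID (0.0115) and -1.02 for LMNB2 in LB2-AID (0.000857). LMNA read 773, 263, 373 and 332 CPM in untreated LA/C-AID, so that replicate 1 lay within the parental range of 615 to 862, and LMNB2 read 261, 109, 99.9 and 100 CPM in untreated LB2-AID against 235 to 307. Without these replicates 1 the differences were -1.16 (0.000491) and -1.43 (1.38e-07). Degron loss acts on the protein, which RNA counts do not measure.

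Transcript levels of the pore genes covered about an order of magnitude in untreated parental cells, on the RPKM scale, which divides library-scaled counts by exon length. NUP43, an outer ring subunit, was highest at 42.8 ± 4.36 (SD, n = 4). NDC1, a membrane protein that helps insert new pores, followed at 38.0 ± 3.58. The inner ring linker NUP155 stood at 35.6 ± 4.26, and the libraries of these 3 genes overlapped. The basket protein NUP153 reached 32.9 ± 6.06. At the other end were NUP214 at 4.68 ± 0.676 and GLE1 at 5.53 ± 0.581, both of the cytoplasmic side, with NUP54 of the central channel at 5.78 ± 0.947. The highest and lowest member of each assembly were NUP43 and NUP85 (8.90 ± 0.671) in the outer ring, NUP155 and NUP35 (6.56 ± 0.91) in the inner ring, and NUP98 (27.2 ± 3.99) and NUP54 in the channel. They were NDC1 and POM121 (8.15 ± 0.626) in the membrane ring, NUP153 and TPR (7.56 ± 0.275) in the basket, and RANBP2 (13.3 ± 1.65) and NUP214 on the cytoplasmic side.

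The order was largely kept across the 12 groups: NDC1 ranked between 1 and 3 of the 31, NUP155 between 2 and 4, and NUP214 between 29 and 31. NUP210 had the widest range of ranks, 5 to 21. The order depends on the length used, since the table's length counts the exons of all isoforms. With the longest annotated transcript, SEC13 was highest at 67.8, NUP54 stood at 38.0, NUP98 at 50.3, NUP85 at 20.7, RANBP2 at 30.5 and NUP214 at 15.2, and NUP35 was lowest at 9.34.

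**Figure D1:**
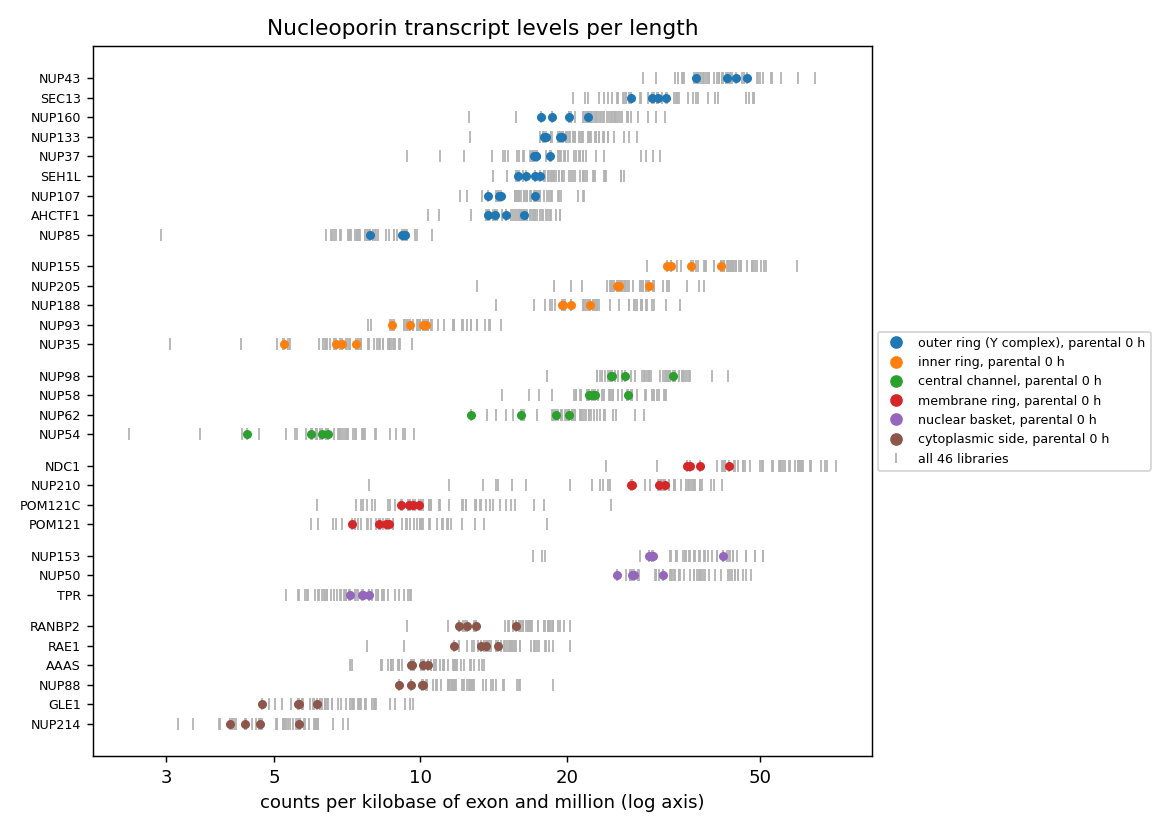
Level of each of the 31 nucleoporin genes, in RPKM (library-scaled counts per kilobase of exon, log axis), grouped by assembly. Coloured points are the 4 untreated parental libraries and grey ticks all 46 libraries. NUP43, NDC1 and NUP155 lie at the top and NUP214 at the bottom, and NUP210 has grey ticks far to the left of its coloured points.

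Within a gene, levels are given from here on as CPM, scaled by trimmed mean of M values. The ratio of the highest to the lowest group mean had a median of 1.52 over the 31 genes, and the median coefficient of variation between replicates of a group had a median of 8.83% over the genes. The widest ratios were those of NUP210 (2.64), SEC13 (2.08), POM121C (1.98) and POM121 (1.94). AHCTF1, which seeds pores on chromatin after mitosis, had the narrowest at 1.25. In 24 comparisons, which leave out 6 added after the levels had been seen (tagged line against parental at 16 and 96 h) and make 744 tests of a member, edgeR's quasi-likelihood test called 41 changes at an adjusted p under 0.05, and 17 of the 31 genes had at least 1 call. The other 14 had none: NUP107, NUP133, NUP160, NUP37, NUP85, AHCTF1, NUP155, NUP205, NUP54, NUP58, NUP153, NUP214, RAE1 and AAAS. Of these, NUP107 and AAAS had a call in the 6 added comparisons. The outer ring scaffold had 6 of its 9 genes without a call in the 24, and SEC13 alone had 9 of the 41 calls. Calls over all 21484 genes ran from 1 for the LB2-AID minus parental response at 16 h to 4379 for LB1-AID from 16 to 96 h. No share over all genes was computed for the 24 together, so the tally only describes the members. Shares for single comparisons are given below.

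**Figure D2:**
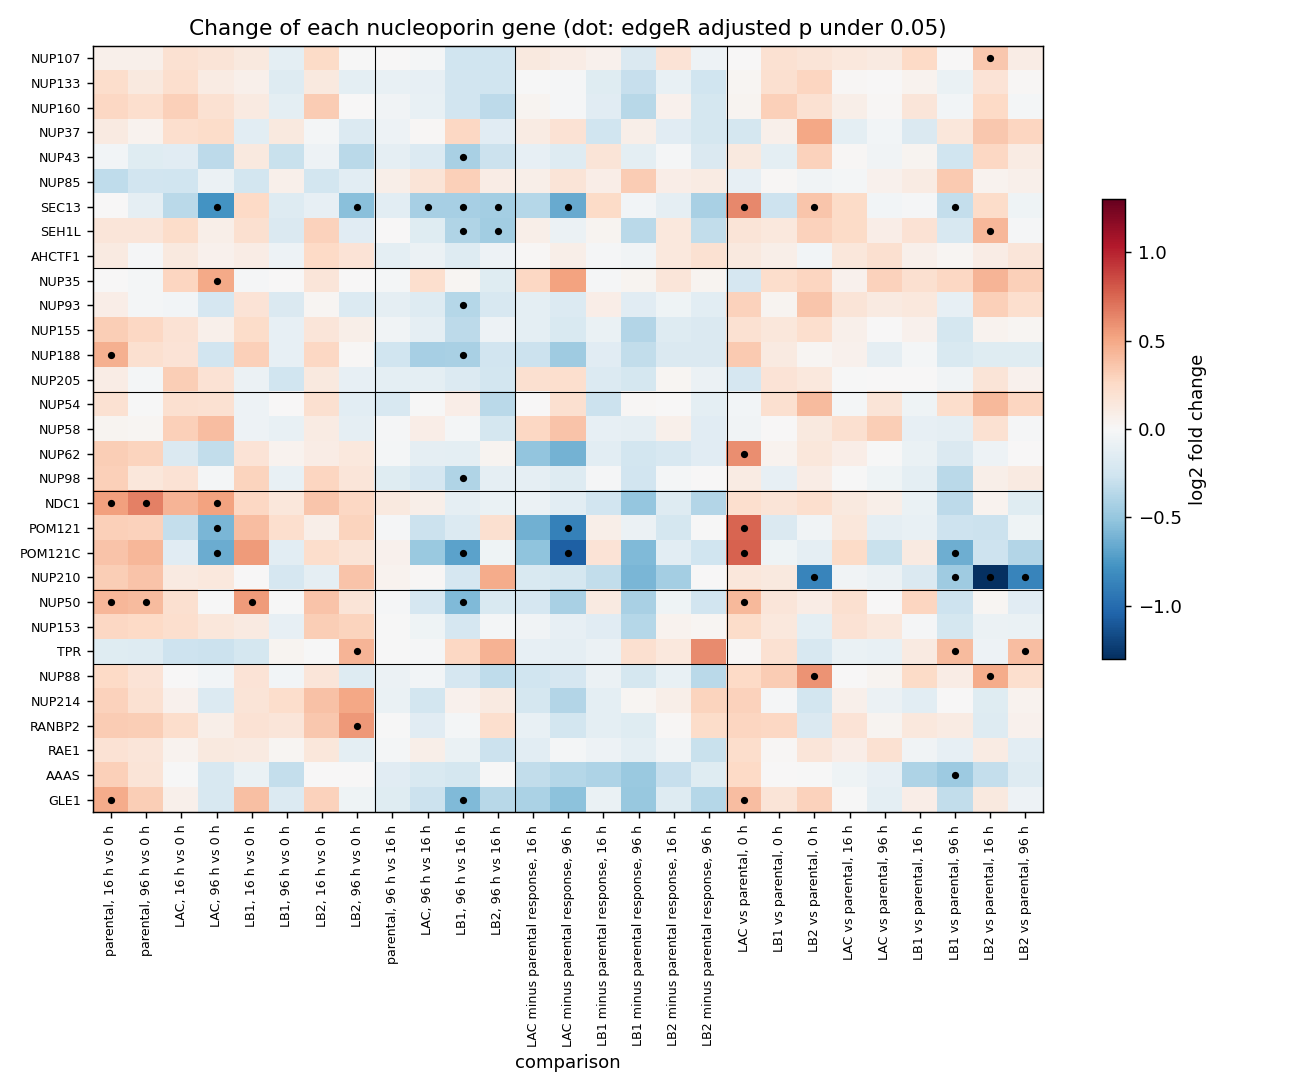
Log2 fold change of each nucleoporin gene (rows, ordered by assembly) by comparison (columns): auxin time against 0 h, 96 h against 16 h, response minus parental response, and tagged line against parental at each time. Dots mark calls at an edgeR adjusted p under 0.05. The blue cells of NUP210 in LB2-AID and of SEC13, POM121 and POM121C in LA/C-AID are the deepest.

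In parental cells auxin was followed by higher levels of 4 pore genes at 16 h and 2 at 96 h, and no member was called lower. The lowest log2 change at 16 h was that of NUP85 in the outer ring, -0.33 ± 0.13 (edgeR adjusted p = 0.0906). At 16 h the 4 of 31, or 12.9%, compare with 9.01% of all genes called in either direction and 4.23% called higher, and at 96 h the 2 of 31, or 6.45%, with 7.78% and 3.94%. The median log2 change of the 31 was 0.26 at 16 h and 0.16 at 96 h, against -0.04 and -0.03 over all genes, with 28 and 22 of the 31 above 0. By assembly the medians at 16 h were 0.12 in the outer ring, 0.10 in the inner ring, 0.26 in the channel, 0.35 in the membrane ring, 0.27 in the basket and 0.31 on the cytoplasmic side.

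NDC1 read 177, 204, 170 and 167 CPM in the 4 parental libraries at 0 h, 285, 271, 238 and 239 at 16 h, and 323, 258, 278 and 271 at 96 h. Neither later group overlapped the 0 h values. The log2 rise was 0.53 ± 0.17 (SE) at 16 h (edgeR adjusted p = 0.038) and 0.65 ± 0.17 at 96 h (0.00959), and the 16 h call was lost in 6 of the 8 fits without a library. NUP50, a basket protein that helps release import cargo, read 225, 260, 227 and 209 CPM at 0 h, then 305, 310, 295 and 332 at 16 h and 314, 310, 301 and 301 at 96 h. It rose by 0.43 ± 0.11 (edgeR adjusted p = 0.0117) and 0.41 ± 0.11 (0.0159), again with no overlap. Of the 50-base words of the NUP50 transcript, 15.7% also occur in other genes, 12.1% in AL133268.1. The inner ring scaffold gene NUP188 went from 157 to 179 CPM at 0 h to 221 to 234 at 16 h, a rise of 0.46 ± 0.14 (0.0353). That call was lost in 6 of the 8 fits without a library and in 2 of 9 alternatives. GLE1, which activates the helicase that strips proteins from exported mRNA, went from 50.9 to 66.0 CPM to 80.5 to 87.0, a rise of 0.48 ± 0.13 (0.0185). At 96 h NUP188 and GLE1 were not called. Leaving out parental 16 h replicate 4 left 0 of the 4 calls at 16 h, and leaving out parental 0 h replicate 2 gave 9. Between 16 and 96 h no parental member was called, against 0.265% of all genes, with 0 of 31 at an unadjusted p under 0.05.

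Before auxin was added, 6 of 31 pore genes were higher in LA/C-AID than in parental cells and 0 lower, or 19.4% called, against 15.8% of all genes called in either direction and 8.71% called higher. The 6 were SEC13, POM121, POM121C, NUP62, NUP50 and GLE1. The count ran from 3 to 15 under other settings and from 5 to 11 without 1 library, with 11 when LA/C-AID replicate 1 was left out. The settings with 3 and 15 called 1317 of 14542 and 4260 of 20450 genes. The median log2 difference of the 31 was 0.20, against -0.06 over all genes. At 16 and 96 h of auxin, comparisons added after the levels had been seen, no member was called between LA/C-AID and parental cells, against 3.36% and 1.36% of all genes. The medians over the members were then 0.07 and 0.00, with 2 and 1 of the 31 at an unadjusted p under 0.05.

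SEC13 (chromosome 3, 10293131 to 10321112 on GRCh38, minus strand) had the lowest adjusted p of the 6. Untreated LA/C-AID libraries read 261, 256, 220 and 251 CPM, and the parental ones 166, 146, 172 and 161. All 4 tagged libraries lay above all 4 parental ones, a log2 difference of 0.62 ± 0.10 (edgeR adjusted p = 4.35e-05). With auxin the LA/C-AID values went to 198, 191, 200 and 183 CPM at 16 h and to 142, 153, 141 and 137 at 96 h, and the 3 times did not overlap. The fall from 0 to 96 h was -0.78 ± 0.10 on the log2 scale, or 1.72-fold (5.69e-07), and from 16 to 96 h -0.43 ± 0.10 (0.00687). The step from 0 to 16 h, -0.35 ± 0.10, missed the threshold (0.0565). Parental SEC13 stayed between 136 and 172 CPM at all 3 times, and the LA/C-AID response at 96 h minus the parental response was -0.66 ± 0.15 (0.00517). After removal of the trend with GC and length the 96 h change was -0.76 (4.81e-08), and without libraries under 5000000 counts it was -0.75 (9.96e-08).

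POM121 and POM121C, at 72879349 to 72951440 on the plus strand and 75416786 to 75486299 on the minus strand of chromosome 7, encode near-identical membrane anchors of the pore. Of their 50-base words, 65.7% and 63.3% also occur in other genes, 25.7% of those of POM121 in POM121C, so how reads were divided between them is uncertain and they are reported as a pair. POM121 read 180, 109, 128 and 133 CPM in untreated LA/C-AID cells, 114, 112, 109 and 107 at 16 h, and 120, 73.6, 78.1 and 92.1 at 96 h. In untreated parental cells it read 84.9, 83.9, 71.4 and 81.2 CPM, below every untreated LA/C-AID library. The difference at 0 h was 0.76 ± 0.15 (edgeR adjusted p = 0.000381) and the change at 96 h was -0.59 ± 0.15 (0.00539), where the ranges overlapped. POM121C gave 217, 124, 114 and 122 CPM untreated, 150, 128, 117 and 120 at 16 h, and 114, 78.1, 80.5 and 96.6 at 96 h, against 80.4, 87.6, 83.2 and 84.8 in untreated parental cells. Its difference at 0 h was 0.77 ± 0.19 (0.00405), and its change at 96 h -0.64 ± 0.19 (0.0168).

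In both genes replicate 1 of the untreated LA/C-AID group was the highest of all 46 libraries. Without it the 96 h changes were -0.42 for POM121 and -0.37 for POM121C and missed the threshold, while both genes were still called higher than in parental cells at 0 h. After removal of the trend with GC and length, the changes at 96 h were -0.30 (0.0241) for POM121 and -0.36 (0.047) for POM121C. The LA/C-AID response at 96 h differed from the parental one by -0.88 ± 0.21 for POM121 (0.00956) and by -1.06 ± 0.27 for POM121C (0.0128), and both held in every alternative and every fit without 1 library.

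The remaining LA/C-AID differences at 0 h were smaller. NUP62, the central channel protein, read 144, 139, 174 and 166 CPM against 97.1, 122, 114 and 76.6 in parental cells, 0.60 ± 0.14 higher with no overlap (edgeR adjusted p = 0.00271). Part of its exon sequence, 31.3% of 50-base words, also occurs in other genes. Foremost is ATF5, with 13.2%, which overlaps NUP62 on the opposite strand. NUP50 was 0.42 ± 0.11 higher (0.00687) although replicate 1, at 255 CPM, lay within the parental range, and GLE1 was 0.40 ± 0.13 higher (0.0339). Those calls were lost in 3 and 4 of 9 alternatives. After 96 h of auxin NDC1 rose by 0.52 ± 0.17 (0.0258) and NUP35, a membrane-bending inner ring subunit, by 0.49 ± 0.17 (0.0471). Their untreated values were 114, 282, 217 and 217 CPM and 12.3, 25.4, 25.7 and 25.0 CPM, so that replicate 1 was the lowest in both. Without that library the rises were 0.33 and 0.35 and missed the threshold. In all, 5 of 31 members, 16.1%, were called at 96 h against 15.4% of all genes, and without that library 1 was. At 16 h 0 of 31 were called, against 1.78% of all genes, with 8 at an unadjusted p under 0.05.

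**Figure D3:**
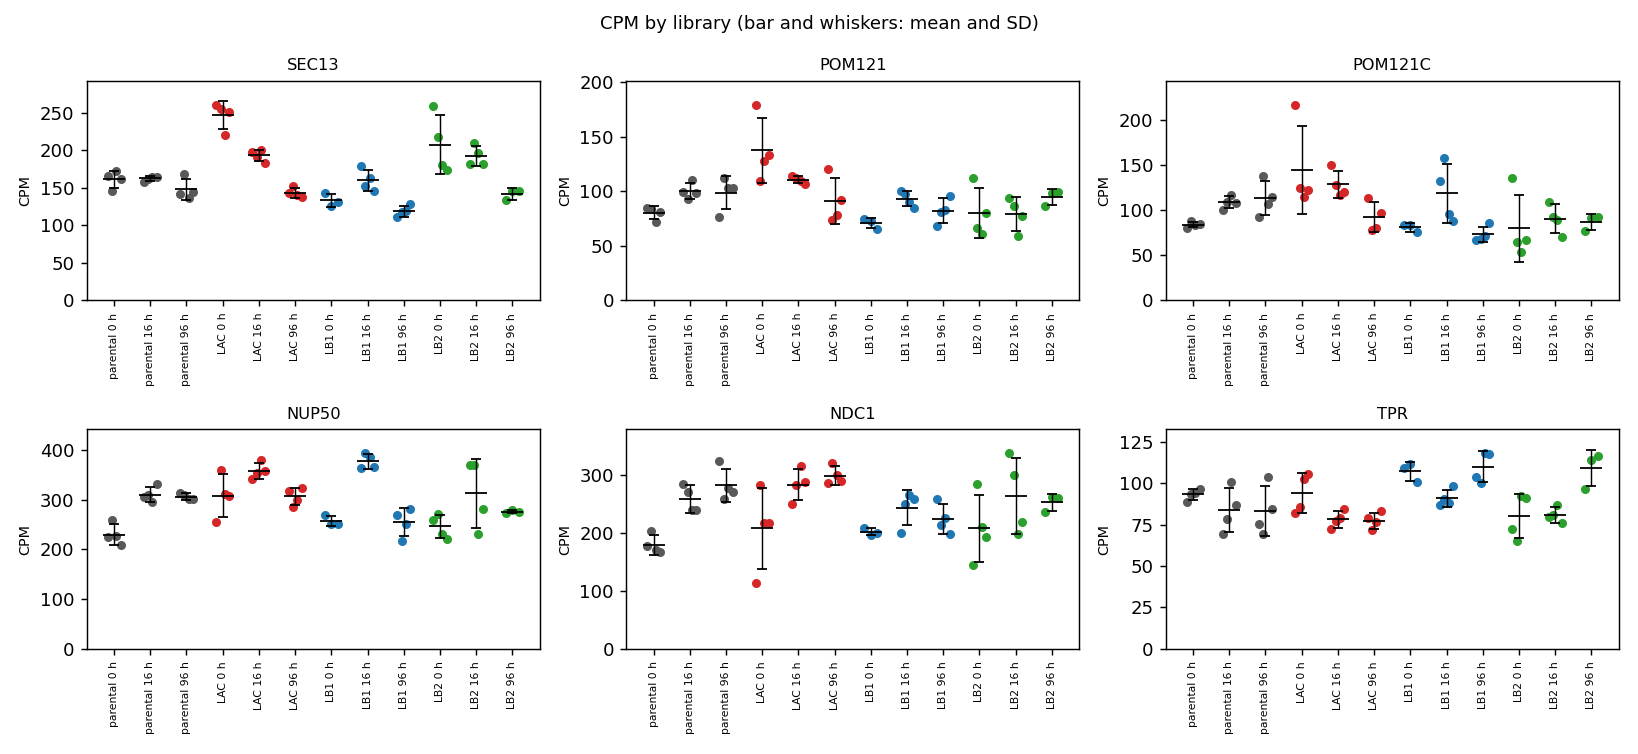
CPM of SEC13, POM121, POM121C, NUP50, NDC1 and TPR in every library of the 12 groups. Points are libraries, bars group means and whiskers SD. SEC13 goes down over the 3 LA/C-AID times from a mean of 247 CPM, and NUP50 in LB1-AID peaks at 16 h with a mean of 378 CPM.

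In LB1-AID cells 9 pore genes were called from 16 to 96 h, 1 from 0 to 16 h and 0 from 0 to 96 h. The difference between these intervals was not tested, and the 0 h group has 3 libraries against 4. NUP50 was the single member called at 16 h, against 1.5% of all genes, and 0 were called at 96 h against 0 h, against 3.17% of all genes and with 2 at an unadjusted p under 0.05. Over the later interval, 16 to 96 h, 9 of 31 members fell and 0 rose, or 29% called, against 20.4% of all genes called in either direction and 10.9% called lower. The median log2 change of the 31 was -0.22, against 0.08 over all genes. The 9 came from every assembly: NUP43, SEC13 and SEH1L of the outer ring, NUP93 and NUP188 of the inner ring, NUP98 of the channel, POM121C of the membrane ring, NUP50 of the basket and GLE1 of the cytoplasmic side.

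NUP50 read 269, 250 and 251 CPM in untreated LB1-AID cells, 365, 395, 386 and 366 at 16 h, and 270, 218, 251 and 282 at 96 h. The 16 h libraries lay above all others of the line. The rise was 0.55 ± 0.12 (edgeR adjusted p = 0.0114), and the later fall -0.57 ± 0.11 (0.000301). POM121C read 132, 158, 95.9 and 88.1 CPM at 16 h and 67.2, 68.2, 70.8 and 85.8 at 96 h, a fall of -0.70 ± 0.19 (0.00728). GLE1 read 100, 93.2, 78.3 and 80.8 CPM and then 54.1, 52.5, 63.9 and 66.9, a fall of -0.57 ± 0.13 (0.0016). In none of these 3 genes did the groups overlap.

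SEC13 read 178, 152, 163 and 146 CPM at 16 h and 111, 117, 119 and 128 at 96 h in LB1-AID cells, with a fall of -0.43 ± 0.10 (edgeR adjusted p = 0.00268). SEH1L, its partner in the Y complex, fell by 0.39 ± 0.11 (0.0115), from 203 to 250 CPM at 16 h to 158 to 189 at 96 h. NUP43 fell by 0.42 ± 0.13 (0.0145) from 168 to 219 CPM to 127 to 154. The inner ring scaffold gene NUP188 fell by 0.42 ± 0.14 (0.0309) from 198 to 241 CPM to 150 to 176. NUP98, a channel protein that also binds mRNA export factors, fell by 0.39 ± 0.14 (0.0468) from 318 to 449 CPM to 299 to 315. NUP93, the inner ring hub, fell by 0.37 ± 0.12 (0.0282), and its ranges met at 110 CPM. Of the 8 fits without a library, the calls of NUP188, NUP98 and NUP93 were lost in 6, 7 and 5. Those of SEH1L and NUP43 were lost in 2 each. The size depends on scaling: with scaling by DESeq2's size factors in edgeR the median over all genes moved from 0.08 to 0.19, and NUP43, NUP93, NUP188 and NUP98 were not called. With libraries scaled by total counts the median was 0.27, and 5 members and 4517 of 21484 genes were called. After removal of the trend with GC and length, 17 members and 5643 of 20450 genes were, against 4379 of 21484 in the main fit.

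Against parental cells at 96 h, a comparison added after the levels had been seen, LB1-AID had 4 lower members and 1 higher, or 16.1% against 17.1% of all genes. The count of 5 ran from 1 to 14 under other settings and from 1 to 5 without 1 library, with 1 when parental 96 h replicate 2 was left out. Under those settings the number of all genes called ran from 2822 with no low-count filter to 5870 without libraries under 5000000 counts. The log2 difference was -0.63 ± 0.19 for POM121C (edgeR adjusted p = 0.0164), -0.47 ± 0.13 for AAAS of the cytoplasmic side (0.00655), -0.46 ± 0.16 for NUP210 (0.0445) and -0.31 ± 0.10 for SEC13 (0.0299), with no overlap in any. The NUP210 call was lost in 6 of 9 alternatives and that of SEC13 in 4. TPR, the coiled-coil basket filament, was 0.41 ± 0.12 higher (0.0134), with overlap. At 0 and 16 h the LB1-AID line had 0 members called, against 4.05% and 4.34% of all genes, with 4 at an unadjusted p under 0.05 at each time. The LB1-AID response was called different from the parental response for 0 members at 16 and 96 h, against 0.0279% and 1.04% of all genes, with 1 and 7 of 31 at an unadjusted p under 0.05.

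LB2-AID cells had lower NUP210 (chromosome 3, 13316235 to 13420322, minus strand), the membrane glycoprotein of the pore lumen that differs widely between cell types. Untreated LB2-AID libraries read 271, 219, 180 and 193 CPM, and parental ones 361, 424, 412 and 363. At 16 h the LB2-AID values were 300, 206, 104 and 153 CPM against 458, 479, 536 and 476, and at 96 h 191, 327 and 312 against 488, 529, 500 and 500. At each time every LB2-AID library lay below every parental one. The log2 differences were -0.86 ± 0.17 (edgeR adjusted p = 0.000319), -1.30 ± 0.17 (1.41e-07) and -0.86 ± 0.18 (0.00131), the last being -0.60 and not called without LB2-AID 96 h replicate 1. The response to auxin within the line was not called at either time, 0.37 ± 0.18 at 96 h against 0 h (0.291), and the difference from the parental response at 96 h was 0.00 ± 0.24. The 16 h LB2-AID libraries spread from 104 to 300 CPM, and the lowest, replicate 3, was the shallowest library of the series.

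NUP88 (chromosome 17, 5359668 to 5420164, minus strand), which works with NUP214 on the cytoplasmic side, was higher in LB2-AID. It read 149, 192, 177 and 171 CPM untreated against 114, 121, 121 and 108 in parental cells, 0.58 ± 0.10 higher with no overlap (edgeR adjusted p = 3.95e-05). At 16 h it read 177, 191, 224 and 189 CPM against 137 to 140, 0.48 ± 0.10 higher (0.000595). At 96 h it read 154, 153 and 153 CPM against 123 to 140, and the difference of 0.22 ± 0.10 was not called (0.19). Of the NUP88 transcript's words 16.4% also occur in RPAIN, a gene that overlaps it on the opposite strand. SEC13 was 0.36 ± 0.11 higher in untreated LB2-AID cells (0.0225), at 260, 217, 181 and 173 CPM, and 0.27 higher and not called without replicate 1. With these, 3 of 31 members, 9.68%, differed from parental cells at 0 h against 8.21% of all genes. At 16 h, 4 of 31 did against 9.97%, with NUP107 higher by 0.35 ± 0.12 (0.0409) and SEH1L by 0.43 ± 0.12 (0.00987), calls lost in 7 and 4 of the 8 fits without a library. The count of 4 ran from 1 to 10 under other settings and from 2 to 4 without 1 library. Over all genes the number called ran from 1543 with no low-count filter to 3334 without libraries under 5000000 counts. At 96 h, 2 of 31 did against 7.14%, with TPR 0.40 ± 0.13 higher (0.0485). This TPR call was lost in 5 of the 7 fits without a library and in 2 of 9 alternatives.

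**Figure D4:**
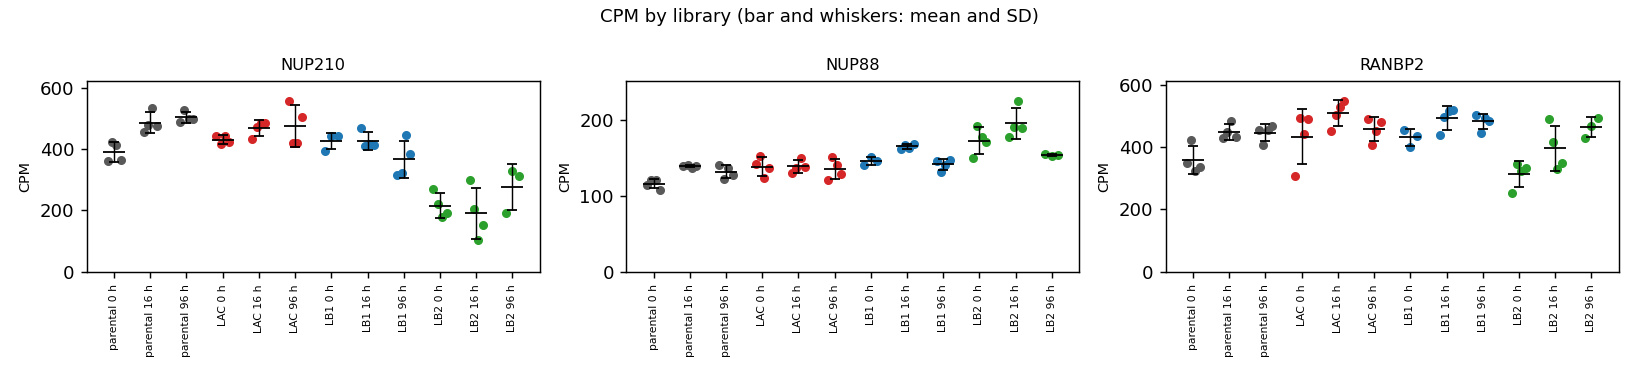
CPM of NUP210, NUP88 and RANBP2 in every library of the 12 groups. Points are libraries, bars group means and whiskers SD. All LB2-AID points of NUP210 lie at or below 327 CPM and all parental points at or above 361 CPM.

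Auxin in LB2-AID cells was followed at 96 h by 3 called members against 0 h, or 9.68% against 3.55% of all genes. SEC13 fell to 133, 146 and 146 CPM, below all 4 untreated libraries, a log2 change of -0.54 ± 0.11 (edgeR adjusted p = 0.00206). RANBP2, the giant cytoplasmic filament protein, read 252, 346, 322 and 331 CPM at 0 h and 429, 468 and 494 at 96 h, a rise of 0.56 ± 0.13 with no overlap (0.00776). In RANBP2, 27.1% of words are shared with its RGPD copies. TPR read 72.6, 65.4, 92.1 and 91.2 CPM at 0 h and 96.7, 114 and 117 at 96 h, a rise of 0.44 ± 0.13 (0.0439). The TPR call was lost in 5 of 9 alternatives, at 0.32 after removal of the trend with GC and length. At 16 h 0 members were called, against 1.81% of all genes, with 8 at an unadjusted p under 0.05. From 16 to 96 h, with the same 96 h libraries, SEC13 was lower by 0.44 ± 0.11 (0.0265). SEH1L fell by 0.45 ± 0.13 (0.0392), from 237 to 275 CPM to 191 to 197. These 2 of 31, or 6.45%, compare with 2.5% of all genes in either direction and 1.45% lower. The SEC13 and SEH1L calls were lost in 5 and 6 of the 7 fits without a library and in 4 and 3 of 9 alternatives.

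The direct tests between responses called few members. The LA/C-AID response at 96 h was lower than the parental response for 3 of 31, or 9.68%, against 7.4% of all genes in either direction and 4.3% lower, the 3 being SEC13, POM121 and POM121C. At 16 h 0 were called, against 0.116%, with 4 at an unadjusted p under 0.05. For LB2-AID 0 members were called at 16 and 96 h, against 0.00465% and 0.368% of all genes, with 0 and 3 at an unadjusted p under 0.05. Between tagged lines at 96 h, the response of SEC13 was lower in LA/C-AID than in LB1-AID, with a difference of -0.62 ± 0.15 (edgeR adjusted p = 0.0332, 1.01% of all genes called). The response of TPR was lower in LA/C-AID than in LB2-AID, with a difference of -0.72 ± 0.18 (0.0417, 0.489% called). These calls were lost in 9 of 15 and 8 of 15 fits without a library. Between LB1-AID and LB2-AID 0 members were called, against 0.121%, with 4 at an unadjusted p under 0.05. From 16 to 96 h SEC13 was the single member called in LA/C-AID, against 5.27% of all genes. The contrasts of LA/C-AID share its 0 h libraries with each other and the parental 0 h libraries with the parental responses, so they are not independent.

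The 14 members without a call in the 24 comparisons, NUP107 and AAAS with a call in an added one included, were spread over all assemblies but the membrane ring. Among the Y complex stems, NUP107 had group means from 122 CPM in untreated parental cells to 165 in LB2-AID at 16 h, NUP133 from 114 to 148, and NUP160 from 169 to 243. NUP85 was lowest in LB2-AID at 16 h with 33.9 CPM and highest in LB1-AID at 96 h with 49.1. The low mean rests on replicate 3, at 15.2 CPM from 7 counts, while the others read 38.9, 44.2 and 37.4. NUP37 had its lowest mean in untreated LA/C-AID (51.5 CPM), where replicate 1 read 38.2 and the others 56.8, 51.6 and 59.2. Its highest was in untreated LB2-AID (84.5), where replicate 1 read 32.7 and the others 99.2, 105 and 101. AHCTF1 lay between 137 and 171 CPM, and 48.4% of its words also occur in other genes, mostly the pseudogene AHCTF1P1. The lowest AHCTF1 mean, in untreated LB2-AID, holds replicate 1 at 105 CPM beside 154, 141 and 148. In the inner ring NUP155 ranged from 326 to 429 CPM and NUP205 from 172 to 237. The lowest NUP205 mean, in untreated LA/C-AID, holds replicate 1 at 99.7 CPM beside 216, 184 and 189. Channel genes NUP54 and NUP58 ranged from 86.7 to 137 and from 296 to 403 CPM. The lowest NUP54 mean, in untreated LA/C-AID, holds replicate 1 at 39.2 CPM beside 114, 103 and 90.4. NUP153, the basket protein closest to the lamina, had its lowest mean in untreated LB2-AID (183 CPM) and its highest in LA/C-AID at 16 h (277). The lowest NUP153 mean holds replicate 1 at 110 CPM beside 236, 201 and 184. On the cytoplasmic side NUP214 lay between 97.3 and 149 CPM, the mRNA export factor RAE1 between 75.0 and 96.8, and AAAS between 37.9 and 58.5. These ranges were between 1.25-fold and 1.64-fold, and the coefficient of variation within a group had a median from 6.82% for NUP133 to 14.3% for NUP37.

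As other genes of the same pathway, 36 genes of nuclear transport were tested alongside: import and export receptors, the Ran cycle that gives transport its direction, and mRNA export. Their list was drawn up with earlier results of these data known. Shares above those of all genes are therefore descriptions only. In parental cells at 16 h 3 rose and 1 fell, 11.1% called against 9.01% of all genes, and the largest were RCC1, the exchange factor of Ran (0.44 ± 0.14, edgeR adjusted p = 0.0416), the exportin XPO6 (0.42 ± 0.13, 0.032) and the RNA helicase DDX39B (-0.59 ± 0.13, 0.00228). DDX39B was the single call at 96 h (-0.42 ± 0.13, 0.0313), 2.78% against 7.78%. In untreated LA/C-AID cells 11 of 36 were higher and 2 lower than in parental cells, 36.1% called against 15.8% of all genes. They were led by the mRNA export adaptor ALYREF (0.98 ± 0.24, 0.00374) and RANGAP1, which switches Ran off (0.81 ± 0.20, 0.00319), with RCC1 (-0.88 ± 0.14, 2.5e-05) and DDX39B (-0.61 ± 0.13, 0.000658) lower. After 96 h of auxin in that line 5 fell and 0 rose, 13.9% against 15.4% of all genes, ALYREF by 0.97 ± 0.24 (0.00361) and RANGAP1 by 0.88 ± 0.20 (0.00137) the most. Against the parental response 6 were lower, with ALYREF at -1.23 ± 0.34 (0.0207) and RANGAP1 at -0.93 ± 0.28 (0.0301), and 1 higher, DDX39B at 0.57 ± 0.18 (0.039), 19.4% against 7.4% of all genes. Without LA/C-AID 0 h replicate 1 these 3 comparisons called 16, 5 and 7 transport genes, and the RANGAP1 value in the last was -0.66 and not called (0.0814). RANGAP1 without it was 0.53 at 0 h (0.0284) and -0.57 at 96 h (0.0283). ALYREF and RANGAP1 hold 57.5% and 56.8% GC, and RCC1 and DDX39B 51.1% and 49.5%. Over 8547 genes, rho between log2 change and GC was 0.49 for LA/C-AID against parental at 0 h. It was -0.66 for LA/C-AID at 96 h against 0 h. No fit with the GC and length trend removed was run for the transport genes.

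In LB1-AID, from 16 to 96 h, 12 transport genes fell and 1 rose, 36.1% called against 20.4% of all genes, with RANGAP1 at -0.82 ± 0.20 (edgeR adjusted p = 0.00229), the importin KPNA2 at -0.62 ± 0.13 (0.000735) and DDX39B at 0.54 ± 0.12 (0.00168). In LA/C-AID 3 fell over the same interval, 8.33% against 5.27% of all genes, led by the importins KPNA4 (-0.61 ± 0.14, 0.0044) and KPNB1 (-0.53 ± 0.12, 0.00529). LB1-AID at 16 h had 2 higher than at 0 h, RCC1 (0.62 ± 0.16, 0.0319) and the import receptor TNPO3 (0.47 ± 0.13, 0.0444), 5.56% against 1.5% of all genes, and its response at 96 h differed from the parental one for DDX39B (0.80 ± 0.19, 0.0221), 2.78% against 1.04%. Before auxin LB1-AID had 2 lower than parental cells, RCC1 (-0.77 ± 0.16, 0.00107) and IPO13 (-0.49 ± 0.15, 0.0461), 5.56% against 4.05%. LB2-AID had RCC1 lower (-1.06 ± 0.15, 1.03e-06) and NXT1 (0.47 ± 0.14, 0.0291) and RAN (0.42 ± 0.11, 0.0143) higher, 8.33% against 8.21%, and without its replicate 1 the 3 calls became 6. RCC1 counts were thus lower than in parental cells in all 3 tagged lines at 0 h. On the same strand RCC1 overlaps SNHG3, SNORA73A and SNORA73B, and DDX39B overlaps ATP6V1G2-DDX39B, SNORD117 and SNORD84. How reads were divided at these overlaps is uncertain.

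**Figure D5:**
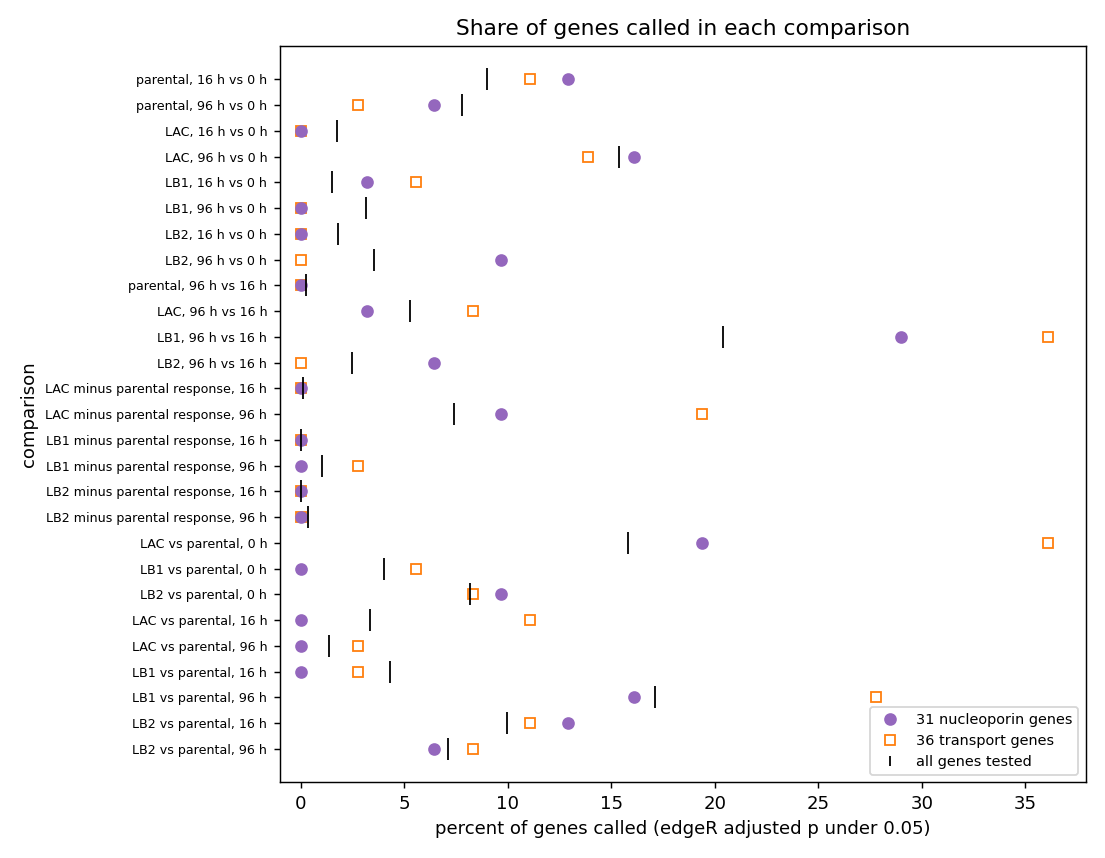
Percent of genes called at an edgeR adjusted p under 0.05 in each comparison, for the 31 nucleoporin genes (filled circles), the 36 transport genes (open squares) and all genes tested (vertical ticks). For the nucleoporins LB1-AID from 16 to 96 h is farthest right at 29%, against 20.4% of all genes, and in untreated LA/C-AID they stand at 19.4%, against 15.8%.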

How the data were processed

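The members and gene lists were chosen with earlier results of these data known. The deposited table holds raw counts per gene from ribosome-depleted, stranded total RNA libraries. Per the submitters' processing notes, STAR 2.7.10a, SAMtools 1.10, deepTools 3.4.5, featureCounts 1.6.4 and DESeq2 1.40.2 were used with GRCh38, and whether counting used strand is not given in the sources used here. Gene IDs were matched to GENCODE 29 names, and 3 lines of 1 broken gene were left out.

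Counts of all 46 libraries were fitted together with edgeR 4.0.16 in R 4.3.3 (12 groups, TMM scaling, filterByExpr, quasi-likelihood test). P-values were Benjamini-Hochberg adjusted over all 21484 genes and called under 0.05. Errors of log2 changes are standard errors. Every called member is named where at most 10 are called, otherwise the 5 largest in each direction, beside the highest and lowest member per assembly, up to 2 transport genes per direction and planned comparison, and the 3 lamins. The comparisons of tagged with parental lines at 16 and 96 h were added after values were seen. Alternatives were other scalings, no low-count filter, DESeq2 1.42.0, the compared groups only, a replicate block, no libraries under 5000000 counts, GC and length trends removed, and each library left out. The scripts were tested on simulated counts.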

Additional observations from a re-analysis of the deposited data

Results flagged for a closer look

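The responses of 3 genes at 96 h of auxin differed between LA/C-AID and parental cells by a direct test: SEC13 by -0.66, POM121 by -0.88 and POM121C by -1.06 on the log2 scale. Between tagged lines, SEC13 differed by -0.62 (LA/C-AID minus LB1-AID) and TPR by -0.72 (LA/C-AID minus LB2-AID).

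Single libraries lay far from the other 3 of their group in 24 of 310 pairs of gene and group, where chance gives about 1 in 20. Replicate 1 of untreated LA/C-AID accounted for 5: NUP43 at 286 CPM and POM121C at 217 were high, and NUP35 at 12.3, NUP93 at 96.1 and NUP188 at 138 were low. Replicate 2 of untreated parental cells accounted for 4, with NUP85 at 41.0 CPM, NUP205 at 225, NUP58 at 358 and NUP153 at 257. Replicate 1 of untreated LB2-AID accounted for 3, with NUP37 at 32.7 CPM, NUP35 at 17.2 and POM121C at 135. Replicate 1 of LA/C-AID at 16 h accounted for 3, with NUP54 at 82.4 CPM, NUP98 at 382 and NUP153 at 224. LB2-AID at 16 h, replicate 3, had SEH1L at 237 CPM and NUP58 at 224. Parental replicate 3 at 16 h had NUP35 at 21.0 CPM and NUP54 at 95.1. The others were NUP37 at 64.5 CPM in untreated parental replicate 1, NUP85 at 40.3 in LA/C-AID at 16 h replicate 3, NUP98 at 326 in parental cells at 96 h replicate 2, NUP58 at 334 in LB1-AID at 96 h replicate 1 and NUP210 at 469 in LB1-AID at 16 h replicate 1. The causes were not tested.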

How the results depend on the processing

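No called change of a member reversed sign in 468 refitted values, of which 375 kept the call and 93 lost it, and 126 of 446 fits without a library lost it. The calls of NUP210 in LB2-AID at 0, 16 and 96 h, NUP88 in LB2-AID at 0 h, SEC13 in LA/C-AID at 96 h and 0 h, and the POM121 and POM121C differences at 0 h and in response held in all 9 alternatives. So did NDC1 at 96 h and GLE1 at 16 h in parental cells, and GLE1, NUP50 and POM121C in LB1-AID from 16 to 96 h. POM121C in LB1-AID against parental at 96 h held as well. Of the 8 fits without a library, GLE1 in parental cells was lost in 2 and POM121C against parental in 3. Counts of called members moved more, and the causes were not tested. The number of all genes called changed with the setting as well, so counts of members under different settings have no common scale. Replicate numbers were not taken to pair the samples, since only 118 of 243 same-numbered pairs of libraries correlated above 0.1. Of the 46 libraries 25 correlated best with their own number, a hint of shared variation from the data and not from the design. A replicate block changed 2 counts of members by over 1.5 times, LA/C-AID minus LB2-AID response at 96 h (2 against 1) and LB2-AID minus parental response at 96 h (1 against 0).

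With DESeq2's size factors in edgeR, counts were 2 for LA/C-AID minus LB1-AID response, 2 for LA/C-AID minus LB2-AID response and 1 for LA/C-AID at 16 h. With library size only they were 2 for LA/C-AID minus LB1-AID, 1 for LA/C-AID at 16 h, 0 for LA/C-AID from 16 to 96 h, 5 for LB1-AID from 16 to 96 h and 1 for LB2-AID minus parental at 96 h. This scaling moved the median log2 change over all genes from 0.08 to 0.27 for LB1-AID from 16 to 96 h and from -0.06 to -0.24 for LA/C-AID against parental at 0 h. With no low-count filter they were 0 for LA/C-AID minus LB1-AID and minus LB2-AID, 0 for LA/C-AID from 16 to 96 h, 0 for LB1-AID at 16 h, 3 for LB1-AID from 16 to 96 h, 0 for LB2-AID at 96 h, 0 from 16 to 96 h, and 1 for parental at 96 h.

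Without libraries under 5000000 counts they were 0 for LA/C-AID minus LB1-AID, 4 minus LB2-AID and 8 minus parental at 96 h. They were 13 for LA/C-AID and 7 for LB2-AID against parental at 0 h, 3, 15 and 9 from 16 to 96 h in LA/C-AID, LB1-AID and LB2-AID, 2 for LB1-AID and 2 for LB2-AID at 16 h, and 4 for parental at 96 h. With the GC and length trend removed, alone and with a replicate block, the 96 h response counts were 2 and 2 for LA/C-AID minus LB1-AID, 3 and 3 minus LB2-AID, 6 and 6 minus parental, and 1 and 2 for LB2-AID minus parental. Against parental at 0 h they were 14 and 15 for LA/C-AID, 1 and 1 for LB1-AID, and 9 and 10 for LB2-AID. From 16 to 96 h they were 3 and 3, 17 and 17, and 6 and 7 in LA/C-AID, LB1-AID and LB2-AID. At 16 h they were 2 and 2, 3 and 4, and 1 and 1 in those lines and 9 and 11 in parental cells, and at 96 h 5 and 6 in LB2-AID, 6 and 6 in parental cells and, with the block, 8 in LA/C-AID. For LB1-AID from 16 to 96 h, 6760 of 22423 genes were called without the shallow libraries, against 4379 of 21484 in the main fit. For parental cells at 16 h the trend fits called 3054 and 3236 of 20450 genes, against 1935 of 21484. LA/C-AID against parental at 0 h had 3393 of 21484 genes called in the main fit. The trend fits called 4144 and 4260 of 20450 there, and the fit without shallow libraries 3301 of 22423.

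Fitting the compared groups only gave 0 for LA/C-AID minus LB1-AID and minus LB2-AID, 1 for LB1-AID minus parental at 96 h, 3 for LA/C-AID at 0 h against parental, 1 for LA/C-AID at 96 h, 4 from 16 to 96 h, 0 for LB2-AID at 96 h and 0 from 16 to 96 h, and 8 and 4 for parental cells at 16 and 96 h. DESeq2's Wald test gave 2 for LA/C-AID minus LB1-AID, 3 minus LB2-AID, 5 minus parental at 96 h, 3 for LA/C-AID at 16 h and 2 from 16 to 96 h. It gave 1 for LB1-AID and 5 for LB2-AID at 0 h against parental, 1 for LB2-AID minus parental at 96 h, 1 for LB2-AID at 16 h and 4 from 16 to 96 h.

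Leaving out each library in turn gave 0 to 2 for LA/C-AID minus LB1-AID, 0 to 3 minus LB2-AID and 3 to 7 minus parental at 96 h. It gave 5 to 11 for LA/C-AID and 2 to 7 for LB2-AID against parental at 0 h, 0 to 5 and 1 to 7 for LA/C-AID at 16 and 96 h, 0 to 1 for LB1-AID at 16 h, and 0 to 1 and 1 to 3 for LB2-AID at 16 and 96 h. From 16 to 96 h it gave 1 to 2, 4 to 9 and 0 to 3 in LA/C-AID, LB1-AID and LB2-AID, and in parental cells 0 to 9 at 16 h and 1 to 3 at 96 h. Among lamin, transport and SEC13 partner genes, chosen after seeing the data, leaving out LA/C-AID or LB2-AID 0 h replicate 1 was the single alternative run, and it moved the transport count of LB2-AID against parental at 0 h from 3 to 6. Shallow 0 h libraries limit the precision of every contrast with 0 h.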

Other observations

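SEC13 also serves the COPII vesicle coat and the GATOR2 complex, so the other genes of those complexes were examined, from lists written after the SEC13 values had been seen. They are values, and no explanation was tested. Of 10 COPII coat genes besides SEC13, 1 fell in LA/C-AID at 96 h against 0 h and 0 rose, against 15.4% of all genes called: SEC16A, which organises the sites where these vesicles bud, at -0.78 ± 0.15 (edgeR adjusted p = 0.000289). SEC16A was also 0.66 ± 0.15 higher than in parental cells before auxin (0.00184). There 3 of 10 COPII genes were called higher and 0 lower, against 3393 of 21484 genes called. The LA/C-AID response of SEC16A at 96 h minus the parental response was -1.03 ± 0.21 (0.0032). That was 1 of 10 called, against 1589 of 21484 genes. In parental cells 1 of 10 COPII genes was called lower and 0 higher at 16 and at 96 h, against 1935 and 1671 of 21484 genes. The median log2 change of the 10 at 96 h in LA/C-AID was -0.01. Of 3 GATOR2 genes, WDR24 fell by 0.72 ± 0.16 (0.00116), 1 of 3 called. WDR24 was 0.56 ± 0.16 higher than in parental cells at 0 h (0.0112), and 0.40 higher and not called without LA/C-AID replicate 1. WDR59 was lower at 0 h at -0.40 ± 0.10 (0.0054), so that 2 of 3 were called there, against 3393 of 21484 genes. SEC16A, WDR24 and WDR59 hold 56.5%, 63.4% and 49.7% GC, and no fit with the GC and length trend removed was run for them. From 16 to 96 h SEC16A fell in LA/C-AID by 0.68 ± 0.15 (0.00313) and in LB1-AID by 0.71 ± 0.15 (0.000679), comparisons in which SEC13 fell as well. In LA/C-AID that was 1 of 10 COPII genes called, against 1133 of 21484 genes. In LB1-AID it was 2 of 10, with 1 lower and 1 higher, against 4379 of 21484 genes. In LB2-AID 0 of the 10 COPII genes were called at 96 h against 0 h by edgeR, against 3.55% of all genes, where SEC13 fell, and 1 had an unadjusted p under 0.05.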
